A study of Mus musculus with 10 samples.

Results

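Complex I, the NADH:ubiquinone oxidoreductase of the mitochondrial inner membrane, was followed through its nuclear genes in cells sorted from infarcted mouse hearts. Every row of the count table whose symbol begins with Ndufa, Ndufb, Ndufc, Ndufs, Ndufv or Ndufaf was taken, except 3 names ending in -ps. This gave 51 of 56832 rows, chosen by name, though with earlier results of these data known. They were 7 nuclear core subunits, 30 accessory subunits, 8 Ndufaf assembly factors, Ndufa4, Ndufa4l2 and 4 rows named like copies of subunits (Ndufa11b, Ndufb11b, Ndufb4c and Ndufs6b). Ndufa4 and Ndufa4l2 bear the name but are not counted as subunits here. Of the 51 rows, 48 had enough counts to be tested, including all 45 core, accessory and assembly genes. The copies Ndufa11b, Ndufb11b and Ndufs6b were not tested.

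The 10 libraries came from 5 mice, each giving 1 GFP+ and 1 GFP- library. All mice were of the Sprr1a-GFP genotype, a reporter in which GFP marks cells that express Sprr1a, carry the tag Hetz in their titles, had a myocardial infarction at 12 weeks of age and were taken 5 days later. Heart cells were freed by Langendorff digestion and sorted by flow cytometry into the GFP+ fraction, labelled border zone cardiomyocytes, and a GFP- fraction. Uninjured hearts were not analysed here, so each value is GFP+ against GFP- within injured hearts. The titles of the GFP+ libraries name both DAPI-negative and DAPI-positive cells, and those of the GFP- libraries only DAPI-negative cells, so GFP status and this gate cannot be told apart. The mice carry identifiers of a 17C series (17C1 and 17C2) or a 21A series (21A4, 21A5 and 21A7), and the titles of these series are worded differently. What sets the series apart is not given in the sources used here, so any difference between them may belong to the animals, the sort or the libraries, which cannot be told apart.

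Libraries held 12244373 to 38879965 counts. Sprr1a was higher in GFP+ in 5 of 5 mice, as the labels require, by 6.64 ± 0.75 (SE) on the log2 scale (adjusted p = 0.0201, edgeR quasi-likelihood test). Genes of the mitochondrial genome took 9.20% of all counts in the GFP- library and 91.2% in the GFP+ library of mouse 21A7, and between 26.5% and 73.1% in the other libraries. Cardiomyocyte markers were present in all 10 libraries, and the 8 together made up 1.53% to 12.6% of counts outside mitochondrial genes and 5 very abundant non-coding or unnamed loci. On the same base the 8 fibroblast markers made up 2.42% to 5.22% in the GFP- libraries of the 21A mice and 0.0399% to 0.0862% in those of the 17C mice; in GFP+ they made up 0.542% to 2.16% and 0.0968% to 0.109%. In the GFP- library of mouse 21A7 the fibroblast markers, at 5.22%, stood above the cardiomyocyte markers, at 1.53%. None of the 8 fibroblast markers was at 0 in a library, except 1 in each library of mouse 17C2. Macrophage markers were higher in GFP- than in GFP+ in each 21A mouse, at 0.106% to 0.279% against 0.0213% to 0.128%, and made up at most 0.0139% in any library of the 17C mice. In bulk libraries, fewer cells of a type and less RNA per cell cannot be told apart.

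Complex I takes electrons from NADH, hands them to ubiquinone through a flavin and a chain of iron-sulfur clusters in its peripheral arm, and uses the energy to pump protons through its membrane arm. Its core consists of subunits that bacteria share, and part of that core is encoded by the mitochondrial mt-Nd genes. The accessory subunits surround the core and are needed for its assembly and stability, and the Ndufaf factors help to build the complex without staying in it. Cardiomyocytes are packed with mitochondria and rely on fatty acid oxidation, which feeds NADH to complex I. Complex I is also known as a source of reactive oxygen species when blood flow returns to an ischemic heart.

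Levels were compared between genes per length, as log2 counts per base of the gene's exons relative to the median of the subunits in the same library. This quantity is free of library scaling. Exon lengths were found for 44 of the 45 genes; Ndufb1 had none. Core subunits had a median of 0.57, and accessory subunits ranged from -6.19 to 1.94 with a median of -0.05. Ndufb10, a subunit of the distal membrane arm, was highest at 1.94 ± 0.33 (SD, n = 10 libraries), and Ndufb7 of the same arm stood at 1.29 ± 0.21. Most subunits next to each other in the order differed by less than the SD. Ndufs8 at -0.74 ± 0.24 and Ndufs1 at -0.71 ± 0.44, both carriers of iron-sulfur clusters, were the lowest of the core. All 8 assembly factors lay far lower, between -4.64 for Ndufaf7 and -2.39 for Ndufaf8, and their median was 13.6-fold below that of the subunits. Their SD over libraries (median 0.69) was also larger than that of core (0.21) and accessory subunits (0.22). Ndufab1, the mitochondrial acyl carrier protein, at -2.88 ± 0.23 and Ndufb2 at -6.19 ± 0.61 were the accessory subunits in or below the range of the assembly factors; both have long annotated exons (4387 and 4375 bases), which lowers a value per length.

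**Figure D1:**
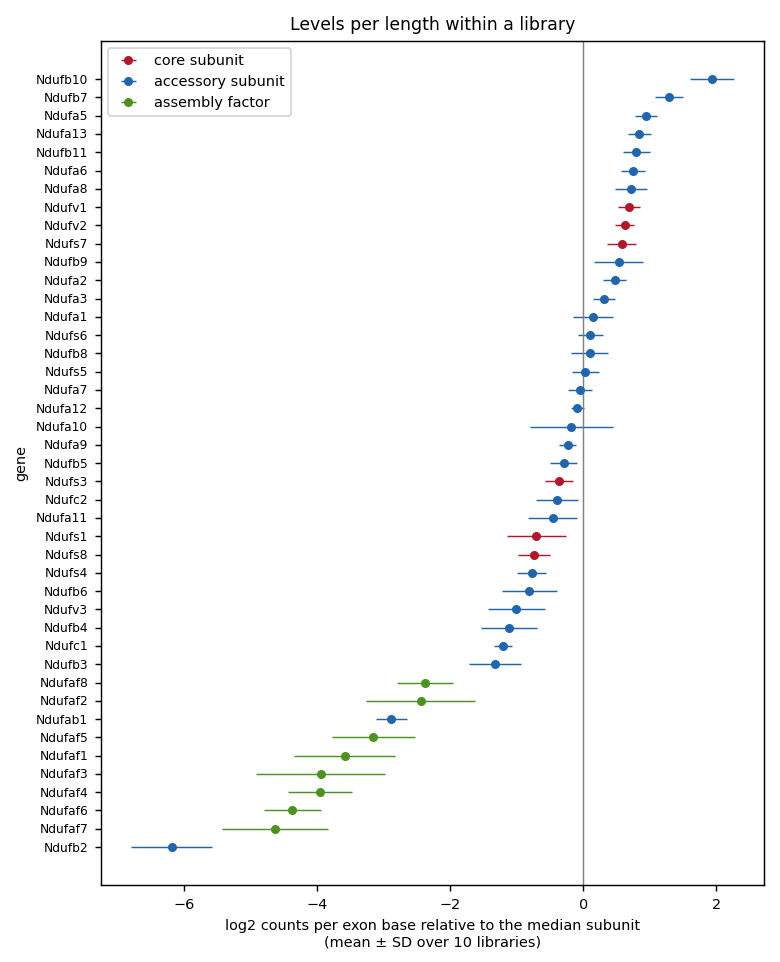
Log2 counts per exon base relative to the median subunit of the same library (x axis) for 43 genes (y axis); points are means and bars SD over 10 libraries, with core subunits in red, accessory subunits in blue and assembly factors in green. The 8 assembly factors lie at -2.39 or lower, and Ndufab1 and Ndufb2 are the subunits that reach as low.

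Promoter windows from 250 bases before to 50 bases after the start were found in RefSeq (build GRCm38.p6) for 40 of the 45 genes. They were searched on both strands for short motifs of factors known to act on respiratory genes. The letters of NRF1, GCGCANGCG, were found in 8 of 33 subunit genes (24.2%) and 2 of 7 assembly factors, against 7.03% of 27025 genes with a window. Those of YY1, AAGATGGCG, were found in 5 of 33 subunits (15.2%) and 1 of 7 assembly factors, against 1.64% of all. The ETS letters CCGGAAG, bound by GABPA among others, were found in 4 of 33 subunits (12.1%) and 2 of 7 assembly factors, against 9.93% of all, and the ERR letters AAGGTCA in 3 of 33 (9.09%) and 0 of 7, against 5.38%. None of the genes' matches to different motifs overlapped. The 5 core subunits with a window held 0 NRF1 matches, 2 with ETS letters (Ndufs3 and Ndufs8) and 1 with YY1 letters (Ndufs7). Windows are shown for the core and the accessory subunit with the smallest p among those with a window in the comparison of the mouse series, for the assembly factor with the highest GFP+ difference, and for Ndufs6, the subunit that holds both NRF1 and YY1 letters, chosen after the matches were seen. Sequences run 5′ to 3′ on the strand of the gene, the start is base 251, and capitals mark the matched letters on either strand.
Ndufs8 (chr19:3912725-3913024, minus strand): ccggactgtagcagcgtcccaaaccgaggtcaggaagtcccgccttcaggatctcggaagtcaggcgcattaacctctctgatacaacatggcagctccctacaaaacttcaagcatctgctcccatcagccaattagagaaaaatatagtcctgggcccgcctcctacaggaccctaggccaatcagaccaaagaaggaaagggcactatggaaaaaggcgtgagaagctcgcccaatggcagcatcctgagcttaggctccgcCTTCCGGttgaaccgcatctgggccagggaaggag
Ndufb7 (chr8:83566508-83566807, plus strand): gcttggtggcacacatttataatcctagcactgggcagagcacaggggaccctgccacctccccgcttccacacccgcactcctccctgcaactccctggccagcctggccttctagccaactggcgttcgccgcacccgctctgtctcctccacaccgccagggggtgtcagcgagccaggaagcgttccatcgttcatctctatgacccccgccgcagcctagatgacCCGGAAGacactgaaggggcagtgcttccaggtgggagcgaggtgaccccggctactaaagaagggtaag
Ndufs6 (chr13:73328433-73328732, minus strand): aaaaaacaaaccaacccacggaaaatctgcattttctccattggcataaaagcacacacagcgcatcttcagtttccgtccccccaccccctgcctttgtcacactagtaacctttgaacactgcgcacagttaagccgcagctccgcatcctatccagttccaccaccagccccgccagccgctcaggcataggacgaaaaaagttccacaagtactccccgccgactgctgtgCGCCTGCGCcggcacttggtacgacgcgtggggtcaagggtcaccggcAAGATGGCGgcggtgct
Ndufaf1 (chr2:119662785-119663084, minus strand): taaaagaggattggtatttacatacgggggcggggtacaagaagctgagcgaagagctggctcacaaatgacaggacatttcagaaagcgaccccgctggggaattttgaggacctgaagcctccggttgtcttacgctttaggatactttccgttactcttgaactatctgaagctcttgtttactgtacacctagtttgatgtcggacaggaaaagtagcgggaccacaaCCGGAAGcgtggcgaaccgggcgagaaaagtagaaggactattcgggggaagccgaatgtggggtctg
In Ndufs8, Ndufb7 and Ndufaf1 the capitals are ETS letters; in Ndufs6 the run before the start matches NRF1 and the run after it YY1. A match describes the letters only.

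Over all 5 mice, no complex I subunit or assembly factor was called different between GFP+ and GFP-. In the paired edgeR quasi-likelihood test, 0 of 45 core, accessory and assembly genes passed an adjusted p under 0.05 in either direction, where 0.685% of 12115 tested genes were called higher and 0.173% lower. No gene of the 45 had an unadjusted p under 0.05, as 15.3% of all genes did. DESeq2 and limma voom also called 0 of the 45, in fits that called 895 and 444 of the 12115 genes. Median log2 fold changes were -0.04 for core, -0.03 for accessory and 0.09 for assembly genes, against -0.04 for all genes tested. With library size alone they were -1.18, -1.17 and -1.03 against -1.15 for all genes. The subunit medians turned on the mice and terms in the fit. Relative to all genes, core and accessory genes stood at -0.30 and -0.41 without the pairing (34 of 37 subunits negative) and at -0.52 and -0.62 with a score of non-myocyte markers as a covariate (35 of 37 negative, 5 with an unadjusted p under 0.05). Without mouse 17C1 they stood at 0.27 and 0.29 and without 17C2 at 0.21 and 0.22, against -0.17 and -0.18 without 21A5 and -0.26 and -0.28 without 21A7. For no gene of the 45 did all GFP+ libraries lie above or below all GFP- libraries, as was the case for 2.45% of all genes.

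The medians near 0 came from mice with opposite differences, parted by identifier series. In both 17C mice nearly all subunits were lower in GFP+, and in the 21A mice most were higher on the TMM scaling used here, though in the fit over the 21A mice the median was negative with library size alone or with scaling to the sarcomere genes. The median difference in log2 CPM (CPM, counts scaled to a common library size after TMM normalization) over the 37 subunits was -1.04 for mouse 17C1 and -0.83 for 17C2, against 0.20, 0.58 and 0.90 for 21A4, 21A5 and 21A7. For 37 of 37 subunits both 17C mice lay below all 3 of the 21A mice, and 26 of the 37 were lower in both 17C mice and higher in all 3 of the 21A mice. Over all genes tested these counts were 2751 and 931 of 12115. In 21A4 the pattern was weakest, with Ndufs1 and Ndufs7 of the core at -0.44 and -0.16.

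**Figure D2:**
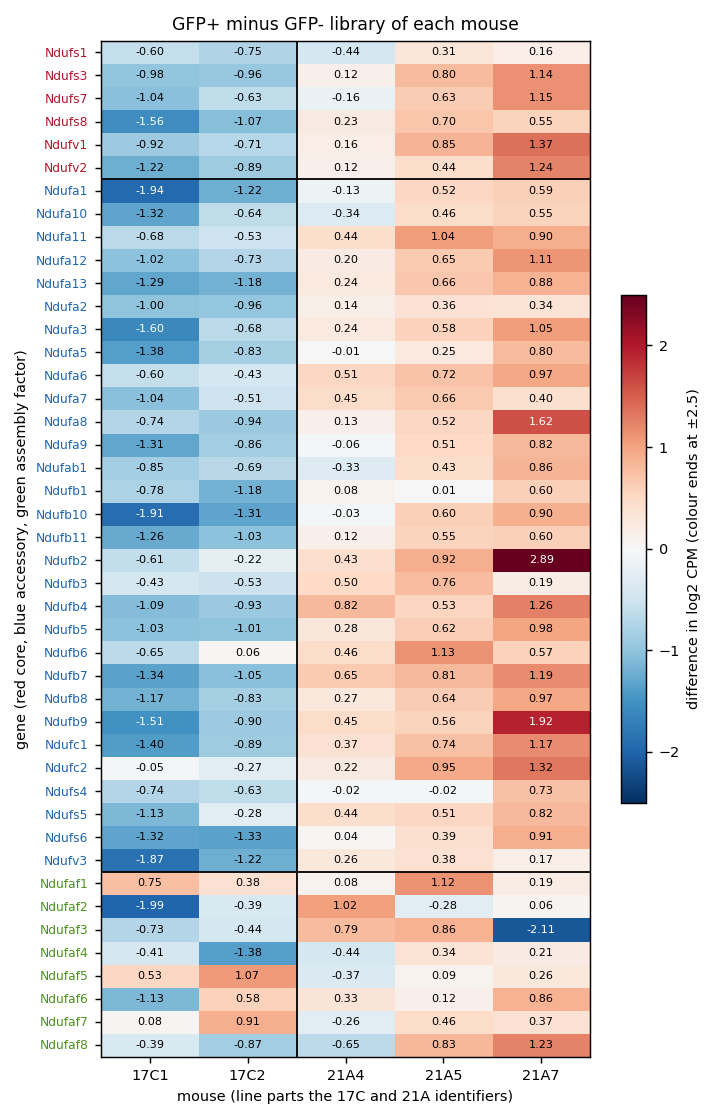
Difference in log2 CPM between the GFP+ and the GFP- library (colour and printed value) of each mouse (columns) for 44 core, accessory and assembly genes (rows). Subunits are blue in the 17C columns, apart from Ndufb6 in 17C2 at 0.06, and mostly red in the 21A columns on this TMM scaling, where the fit over the 21A mice gave negative medians with library size alone or sarcomere scaling; assembly factors have both signs in each mouse.

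The core subunits carry the flavin and the iron-sulfur clusters and form the ubiquinone site. Ndufv2, an iron-sulfur subunit of the NADH-binding module, stood in GFP- and GFP+ at 421 and 181 CPM for mouse 17C1, 399 and 215 for 17C2, 135 and 147 for 21A4, 106 and 143 for 21A5, and 27.6 and 65.2 for 21A7. The 17C GFP- libraries were highest, the GFP- library of 21A7 was lowest, and the groups overlapped. Its difference in log2 CPM was -1.22 and -0.89 in the 17C mice and 0.12, 0.44 and 1.24 in the 21A mice, and the paired log2 fold change over 5 mice was -0.07 ± 0.39 (SE; adjusted p = 0.956, edgeR). Ndufv1, which binds NADH and the flavin, was at 391 and 207 CPM for mouse 17C1, 362 and 221 for 17C2, 152 and 170.2 for 21A4, 94.6 and 170.3 for 21A5, and 27.2 and 70.4 for 21A7. It had nearly the same order of libraries, with overlapping groups, and a paired value of 0.15 ± 0.38 (adjusted p = 0.896, edgeR).

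Ndufs8, a subunit with iron-sulfur clusters at the foot of the peripheral arm, was at 115 and 39.1 CPM for mouse 17C1, 111 and 52.9 for 17C2, 42.8 and 50.1 for 21A4, 29.4 and 47.7 for 21A5, and 9.49 and 13.98 for 21A7 in GFP- and GFP+ in turn. Its GFP+ level was below GFP- in both 17C mice and above it in the 3 of 21A, and its paired value was -0.22 ± 0.38 (adjusted p = 0.836, edgeR). Ndufs3 and Ndufs7, neighbours in the arm that leads to the ubiquinone site, had paired values of 0.02 and -0.02. Ndufs1, the large iron-sulfur subunit, was at 176 and 116 CPM for mouse 17C1, 157 and 93.4 for 17C2, 136 and 101 for 21A4, 83.8 and 104 for 21A5, and 28.4 and 31.8 for 21A7 and departed most from the other core genes. It was lower in GFP+ in 21A4 as well as in both 17C mice, with log2 differences of -0.60 and -0.75 in the 17C mice and -0.44, 0.31 and 0.16 in the 21A mice, with a paired value of -0.26 ± 0.25 (adjusted p = 0.675, edgeR).

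**Figure D3:**
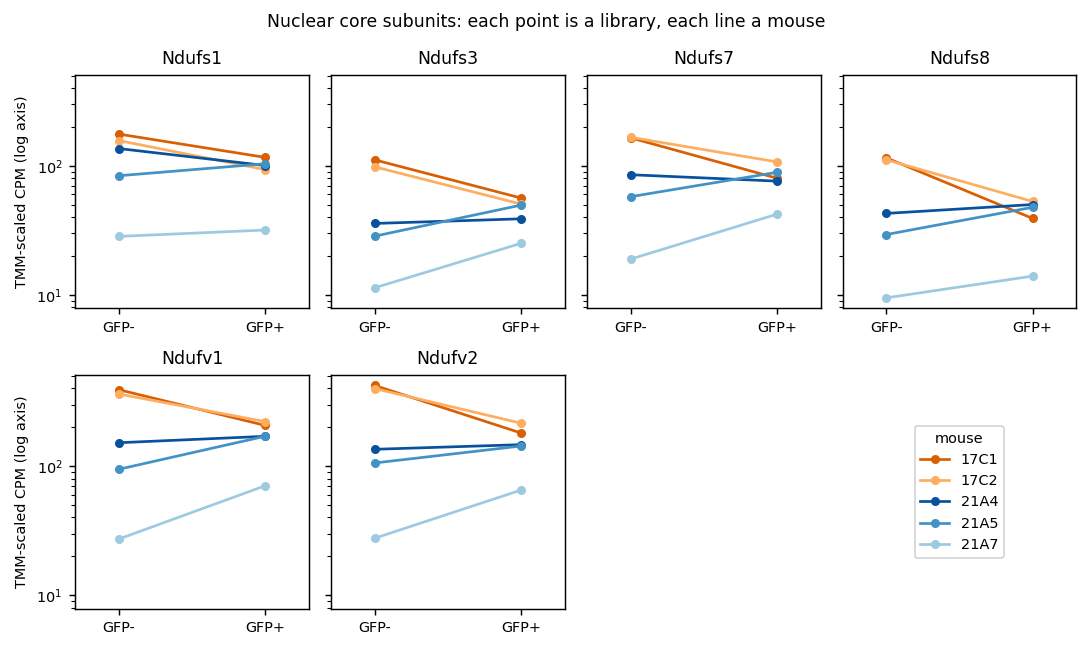
TMM-scaled CPM on a log axis of 6 nuclear core subunits in the GFP- and GFP+ library of each mouse (points), joined within a mouse (lines; orange for 17C, blue for 21A). The orange lines slope down in all 6 panels and most blue lines slope up on this TMM scaling, where the fit over the 21A mice gave negative values for all 6 with library size alone or sarcomere scaling; the GFP- values span a wider range over mice than the GFP+ values.

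Taken alone, the 17C mice showed lower GFP+ levels for most subunits. The paired edgeR test of these 2 mice, which has 1 residual degree of freedom and borrows its spread from all genes, called 26 of 37 subunits lower, 6 of 7 core and 20 of 30 accessory, and 0 higher. In this test 7.52% of 11107 genes were called lower and 6.08% higher. All 37 values were negative, with a median of -0.97 against -0.01 for all genes. Without the pairing 21 were called, in a fit that called 1059 of 11107 genes. Ndufs1 was the core subunit that did not pass (-0.66 ± 0.26, adjusted p = 0.100, edgeR). Among the lowest were Ndufb10 (-1.60 ± 0.28, adjusted p = 0.000300), Ndufa1, a small subunit of the proximal membrane arm (-1.57 ± 0.29, adjusted p = 0.000571), and Ndufv3, a subunit of the NADH module (-1.54 ± 0.28, adjusted p = 0.000475).

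In the 21A mice all 37 subunits had positive values, with a median of 0.61 against -0.06 for all genes, but 1 passed. That gene was Ndufb7, a subunit on the intermembrane-space side of the membrane arm (0.90 ± 0.22, adjusted p = 0.0445, edgeR), in a test that called 2.67% of 13221 genes higher and 4.05% lower. It did not pass without the pairing, where 0 subunits did and 0 of 13221 genes were called. An unadjusted p under 0.05 was reached by 19 of the 37, against 24.3% of 12083 genes.

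The direction depended on the scaling. With library size alone, the median of the subunits in the 21A mice was -1.45 and that of all genes -2.08; with libraries scaled to the sarcomere genes these were -0.49 and -1.16. In the 17C mice the subunit median stayed negative, at -0.82 and -0.21, with 9 and 3 subunits called lower. Library size alone called 1155 of 11107 genes in these mice. The sarcomere scaling also called 2 assembly factors higher, and its share of all genes called is not given here. Relative to all genes the subunits stood 0.63 to 0.67 higher in the 21A mice, and 0.96 lower in the 17C mice under each of these scalings. Shares of counts outside mitochondrial genes and the 5 abundant loci were also taken. In 21A4 the subunits made up 0.902% in GFP- and 0.855% in GFP+, so they were lower. They were higher in 21A5 (0.655% and 0.790%) and 21A7 (0.239% and 0.449%). They were lower in 17C1 (1.92% and 1.04%) and 17C2 (1.83% and 1.15%).

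The difference between the series was tested as an interaction of GFP status and series. It was 21A minus 17C in log2 fold change, and passed for 24 of 37 subunits, all in the positive direction on TMM scaling (with library size alone 0 of the 37 were positive, and with sarcomere scaling 7), in a test that called 3.57% of 12115 genes positive and 4.04% negative. The 24 were 4 core genes (Ndufs3, Ndufs8, Ndufv1 and Ndufv2) and 20 accessory genes, and the median over the 37 was 1.57 against 0.01 for all genes tested. By location 12 of 16 subunits of the peripheral arm, 5 of 9 of the proximal and 7 of 11 of the distal membrane arm passed. The smallest p belonged to Ndufb7, whose level in GFP- and GFP+ was 199 and 78.5 CPM for mouse 17C1, 212 and 102 for 17C2, 66.3 and 104 for 21A4, 54.4 and 95.2 for 21A5, and 18.6 and 42.6 for 21A7. GFP+ was lower than GFP- in both 17C mice and higher in all 3 of 21A on TMM scaling, and the series differed by 2.08 ± 0.34 (SE; adjusted p = 0.0211, edgeR).

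Several accessory subunits differed as much. Ndufb10 was at 427 and 114 CPM for mouse 17C1, 466 and 187 for 17C2, 169 and 165 for 21A4, 115 and 175 for 21A5, and 30.4 and 56.8 for 21A7, with the 17C GFP- libraries far above the rest, and its series difference was 2.10 ± 0.41 (adjusted p = 0.0259, edgeR). Ndufa1 was at 72.7 and 18.9 CPM for mouse 17C1, 69.8 and 29.99 for 17C2, 27.4 and 24.98 for 21A4, 16.8 and 24.2 for 21A5, and 7.12 and 10.8 for 21A7, with a series difference of 1.90 ± 0.38 (adjusted p = 0.0271). Of the core, Ndufs8 differed by 1.81 ± 0.34 (adjusted p = 0.0236) and Ndufs1 by 0.69 ± 0.36 (adjusted p = 0.262). The printed promoter windows of Ndufs8 and Ndufb7 hold ETS letters, as does that of Ndufaf1, which was not called. ETS letters were found in 12.1% of subunits against 9.93% of all genes, and a link to these differences was not tested.

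The call did not hold under every fit. DESeq2 called 30 and limma voom 29 genes, in fits that called 16% and 7.94% of all genes. The fit without the pairing called 0, where 0% of all genes were called. Library size alone called 0, against 3.9% of all genes. A fit with a score of non-myocyte markers as a covariate called 0, against 0.066%. Scaling to the sarcomere genes called 2, both assembly factors with negative values and no subunit, where 37.7% of all genes were called. Leaving out mouse 17C1 or 21A5 left 0 calls, in fits that called 0% and 0.00847% of all genes. Leaving out 17C2, 21A4 or 21A7 left 13, 11 and 12, in fits that called 8.23%, 2.94% and 4.86% of all genes. In each of these fits 37 of 37 subunits had a positive value, except with library size alone, where 0 did, and with sarcomere scaling, where 7 did, and there the median of all genes stood at -2.15 and -1.84.

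**Figure D4:**
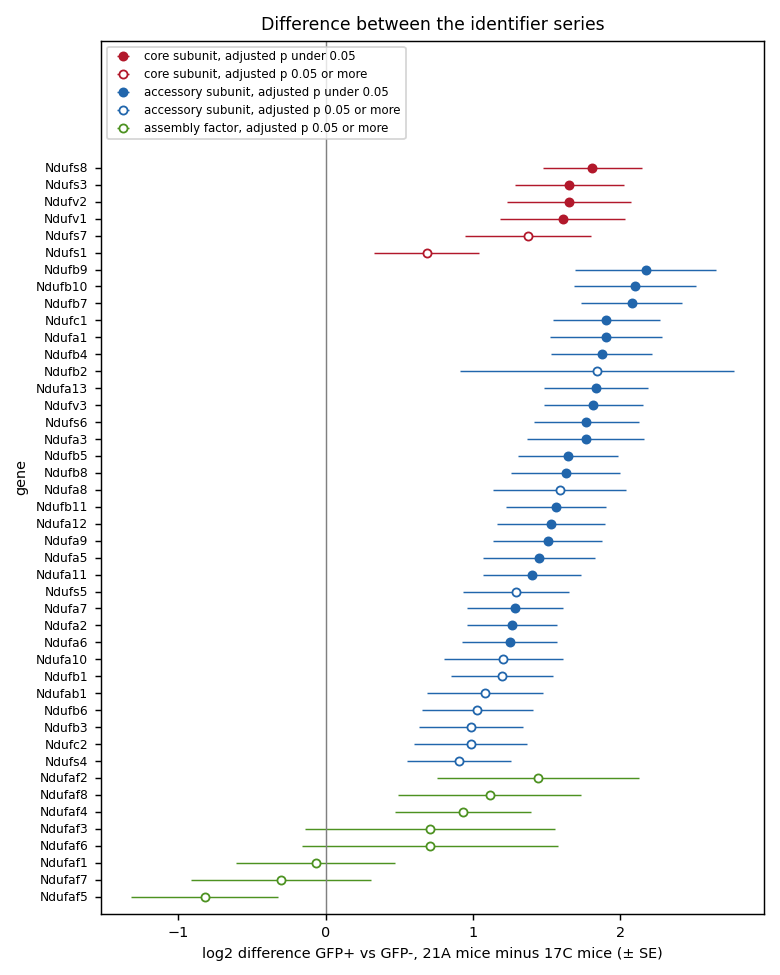
Difference between the series (21A minus 17C) in the log2 fold change of GFP+ against GFP- (x axis, ± SE) for 44 genes (y axis); filled points passed an adjusted p under 0.05 in the paired fit. On this TMM scaling all 36 subunits shown lie above 0, which they do not with library size alone or sarcomere scaling, and 24 are filled, while none of the 8 assembly factors is.

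Accessory subunits at the ends of the paired order were the ones that departed most from the rest. The lowest paired values belonged to Ndufv3 (-0.44 ± 0.38), Ndufa1 (-0.42 ± 0.40) and Ndufb10 (-0.34 ± 0.45), and the highest to Ndufb2 (0.65 ± 0.57), Ndufc2 (0.43 ± 0.28) and Ndufb6 (0.32 ± 0.28), all membrane-arm subunits except Ndufv3. Adjusted p-values of these 6 lay between 0.520 and 0.784 (edgeR). Ndufc2 was at 54.97 and 53.2 CPM for mouse 17C1, 55.98 and 46.5 for 17C2, 26.5 and 30.8 for 21A4, 18.6 and 35.9 for 21A5, and 7.07 and 17.8 for 21A7 and lay closest to 0 in the 17C mice, with differences of -0.05 and -0.27 in the 17C mice and 0.22, 0.95 and 1.32 in the 21A mice. Ndufb2 was low, at 5.68 and 3.7 CPM for mouse 17C1, 8.11 and 6.95 for 17C2, 2.52 and 3.41 for 21A4, 1.62 and 3.12 for 21A5, and 0.434 and 3.74 for 21A7, and its difference was 2.89 in 21A7, whose GFP- library held 24 counts.

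Set against the median subunit of the same library, which removes what the subunits share, few genes had the same sign in every mouse. Of 29 accessory subunits with a length, 2 were relatively higher in GFP+ in 5 of 5 mice (Ndufa6 and Ndufb2) and 5 relatively lower (Ndufa1, Ndufa5, Ndufa9, Ndufb11 and Ndufs6); of 7 core subunits and 8 assembly factors, 0 did so in either direction. For Ndufa1 the relative log2 difference was -0.91, -0.48, -0.36, -0.05 and -0.32 in the order of the mice above. For Ndufa6, a subunit of the peripheral arm, it was 0.44, 0.31, 0.29, 0.15 and 0.05. These values were not tested.

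Of the 8 assembly factors, 0 passed in any of the comparisons on TMM scaling. Over all mice 0, in the 21A mice 0 and for the series difference 0 had an unadjusted p under 0.05 (edgeR). In the 17C mice 2 did, as did 25.4% of 10934 genes. DESeq2 and limma voom also called 0 for the series difference, in fits that called 16% and 7.94% of all genes. With sarcomere scaling 2 were called higher in the 17C mice. For the series difference that scaling called 2, both negative, where 37.7% of all genes were called. Their median was -0.41 in the 17C mice and 0.25 in the 21A mice, and the median series difference was 0.71, with 5 positive and 3 negative values. In these fits on TMM scaling their medians had the signs of the subunit medians. Signs differed over all 5 mice (0.09 against -0.03) and in mouse 21A4 (-0.09 against 0.20). They also differed in the 17C mice with sarcomere scaling (0.34 against -0.21). In the other mice the signs were the same, with 17C2 at -0.005 against -0.83. The classes were not tested against each other. Counts of the assembly factors were far lower than those of the subunits. The standard errors of their series differences were 0.46 to 0.87.

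Ndufaf1, which acts in building the membrane arm, was at 5.86 and 9.9 CPM for mouse 17C1, 12.3 and 16 for 17C2, 8.89 and 9.44 for 21A4, 5.18 and 11.3 for 21A5, and 1.3 and 1.49 for 21A7 in GFP- and GFP+ in turn. On this TMM scaling it was higher in GFP+ in 5 of 5 mice, and per library total in 3 of 5. It was the one gene of the 45 with the same direction in all mice, as 17.2% of all genes had, with log2 differences of 0.75 and 0.38 in the 17C mice and 0.08, 1.12 and 0.19 in the 21A mice, but the groups overlapped and the paired value was 0.52 ± 0.27 (adjusted p = 0.413, edgeR). Ndufaf5, which modifies Ndufs7, was at 9.57 and 13.8 CPM for mouse 17C1, 9.53 and 20.1 for 17C2, 6.89 and 5.31 for 21A4, 6.08 and 6.47 for 21A5, and 2.13 and 2.56 for 21A7, higher in both 17C mice, with a paired value of 0.32 ± 0.29 and a series difference of -0.82 ± 0.50, opposite in sign to that of the subunits (adjusted p = 0.340, edgeR). Ndufaf7, a methyltransferase, had a paired value of 0.32 ± 0.30. Ndufaf3 and Ndufaf4, which act together on the ubiquinone-binding module, were at -0.23 and -0.33. Ndufaf3 held 155 and 51 counts for mouse 17C1, 141 and 86 for 17C2, 296 and 124 for 21A4, 211 and 186 for 21A5, and 117 and 4 for 21A7, in GFP- and GFP+ in turn, so the GFP+ library of 21A7 had the fewest. Ndufaf2, a relative of Ndufa12 that is exchanged for it late in assembly, was at -0.29 ± 0.42, Ndufaf6 at 0.17 ± 0.43 and Ndufaf8, a partner of Ndufaf5, at 0.02 ± 0.37.

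Of 12 other assembly genes in the table, 0 passed over all mice and 2 had an unadjusted p under 0.05 (edgeR); 9 values were positive and 3 negative, with a median of 0.31. Chchd4, the import receptor for disulfide-bonded proteins of the intermembrane space, was at 14.4 and 19.5 CPM for mouse 17C1, 9.45 and 14 for 17C2, 5.51 and 13.1 for 21A4, 5.49 and 12.1 for 21A5, and 3.92 and 4.8 for 21A7. It was higher in GFP+ in 5 of 5 mice on TMM scaling and in 3 of 5 per library total, with a paired value of 0.74 ± 0.25 (adjusted p = 0.217, edgeR). Nubpl, which delivers iron-sulfur clusters to complex I, was at 0.88 ± 0.65 and Tmem126b at -0.13 ± 0.37.

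Ndufa4, now counted with complex IV, was at 217 and 90.6 CPM for mouse 17C1, 188 and 112 for 17C2, 66.9 and 75.8 for 21A4, 52.7 and 74.2 for 21A5, and 13.8 and 21.7 for 21A7. GFP+ was lower in both 17C mice and higher in the 3 of 21A, the paired value was -0.13 ± 0.33 (adjusted p = 0.890) and the series difference 1.44 ± 0.35 (adjusted p = 0.0383, edgeR). Ndufa4l2, a relative known to be induced by hypoxia, held only 14 and 0 counts for mouse 17C1, 22 and 0 for 17C2, 196 and 15 for 21A4, 235 and 27 for 21A5, and 236 and 42 for 21A7, in GFP- and GFP+ in turn. Per library total it was lower in GFP+ in 5 of 5 mice. On TMM scaling the exception was 21A7, at 4.27 CPM in GFP- and 4.48 in GFP+, the groups overlapped, and the paired value was -2.16 ± 0.88 (adjusted p = 0.293, edgeR). Both GFP+ libraries of the 17C mice were at 0, where a count of 0 allows up to 3 counts, so no fold is given there. Of the copies, Ndufb4c was tested (0.62 ± 1.07, adjusted p = 0.836, edgeR), and the other three had at most 4 counts in a library. Reads of a copy and its parent could be split in counting, so Ndufb4 and Ndufb4c, and likewise Ndufa11, Ndufb11 and Ndufs6, are uncertain to that extent.

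The mt-Nd genes encode the part of complex I that is made in mitochondria. All 7 mt-Nd genes had positive paired values with a median of 1.25, 0 passed and 0 had an unadjusted p under 0.05 (edgeR). In the 17C mice 4 of 6 tested were called lower in GFP+, in a test that called 7.52% of 11107 genes lower. Among the 4 were mt-Nd6 (-1.83 ± 0.27, adjusted p = 4.57e-05, edgeR) and mt-Nd5 (-1.67 ± 0.24, adjusted p = 4.57e-05). In the 21A mice the median was 3.24 with 0 passing and 7 of 7 at an unadjusted p under 0.05, against the 24.3% of all genes given above. The level of mt-Nd6 in GFP- and GFP+ was 1809.5 and 429 CPM for mouse 17C1, 1907 and 629 for 17C2, 1109 and 6188 for 21A4, 646 and 1325 for 21A5, and 151 and 24856 for 21A7. Mouse 21A7 stood apart: the median mt-Nd difference was 7.42 there against 2.48 in 21A4 and 1.04 in 21A5 on TMM scaling. As a share of all counts, the mt-Nd genes together went from 0.543% in GFP- to 7.06% in GFP+ in 21A7, from 2.52% to 4.32% in 21A4 and from 1.78% to 2.22% in 21A5. These shares differ by 3.70, 0.78 and 0.32 on the log2 scale, less than the TMM-scaled values. In the 17C mice the share went from 1.74% in GFP- to 1.02% in GFP+ (17C1) and from 1.89% to 1.04% (17C2). Per library total, mt-Nd3 was higher in GFP+ in 5 of 5 mice and each other mt-Nd gene in 3 of 5. Mitochondrial counts as a whole took 91.2% of the GFP+ library of 21A7 and 9.20% of its GFP- partner, and the part this difference plays in the mt-Nd values was not tested. The library kit does not mark strand and mt-Nd6 lies on the other strand beside mt-Nd5, so reads of these neighbours cannot be told apart where they overlap.

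The nuclear genes of the other respiratory complexes had the same order of mice as complex I. Of 38 nuclear genes of complexes II to V, 0 passed over all mice (0 at an unadjusted p under 0.05, edgeR), 32 were called lower in the 17C mice, 1 higher in the 21A mice, and 28 differed between the series, all positively, with a median of 1.64. Per mouse their medians were -1.34, -0.92, 0.10, 0.58 and 0.94. Complex IV was the list with the lowest values in the 17C mice, where 10 of 10 genes were called lower, led by the heart isoform Cox6a2 (-2.38 ± 0.29, adjusted p = 5.46e-06, edgeR). Complex I was not tested against these lists.

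Among 11 regulators of respiratory genes 0 passed over all mice (0 at an unadjusted p under 0.05, edgeR) and 9 of 11 values were negative, with a median of -0.43. In the 17C mice 4 were called lower. Ppara, the fatty acid sensor that drives oxidation genes, was at 20.7 and 1.41 CPM for mouse 17C1, 19.8 and 4.67 for 17C2, 9.75 and 7.22 for 21A4, 4.0 and 6.52 for 21A5, and 0.868 and 1.49 for 21A7, and fell by 2.88 on the log2 scale in the 17C mice (adjusted p = 0.000424). Esrrb, an estrogen-related receptor, fell by 2.43 in them (adjusted p = 0.00187), while Esrra was at -0.45 ± 0.28 (adjusted p = 0.354, edgeR). Between the series 3 of the 11 differed.

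The sarcomere genes, which encode the contractile apparatus, had the same order of mice, with medians of -1.10, -0.46, 0.58, 1.24 and 1.69. The fibroblast markers had the opposite signs, with medians of 1.45, 0.33, -1.96, -2.69 and -1.02, and the 5 passing the series difference were all negative. Marker lists of other non-myocytes were not opposite to the subunits in every mouse. Macrophage markers had medians of -0.26, -0.01, -2.15, -2.72 and -1.07. Markers of endothelial cells had 0.70, -1.09, -1.65, -2.01 and -0.70, and those of mural cells -0.31, -2.66, -1.11, -1.91 and 0.55. The part of these other cells in the subunit differences was not tested beyond the fit with the non-myocyte score, in which the median series difference of the core was 1.69 with 0 genes called, as were 0.066% of all genes. Counts of the 37 complex I subunits per 100 counts of the 19 sarcomere genes were, in GFP- and GFP+, 12.2 and 10.5 for mouse 17C1, 10.3 and 9.46 for 17C2, 6.47 and 5.02 for 21A4, 7.52 and 5.05 for 21A5, and 11.2 and 7.60 for 21A7. This ratio was lower in GFP+ in 5 of 5 mice, with log2 differences of -0.22, -0.12, -0.37, -0.57 and -0.56, although the ranges of the groups overlapped. The ratio sums counts, so abundant genes weigh most in it. The subunit median minus the sarcomere median had the other sign in 17C1, at 0.06, and was -0.37, -0.38, -0.66 and -0.79 in the other mice. Sarcomere genes differed among themselves: Myh6, the adult heavy chain, had a paired value of -0.71 ± 0.74 and Actc1 of 1.32 ± 0.51, while Pdlim5, a Z-disc protein, rose by 1.46 ± 0.24 (adjusted p = 0.0418, edgeR) and was higher in 5 of 5 mice on TMM scaling and in 3 of 5 per library total.

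**Figure D5:**
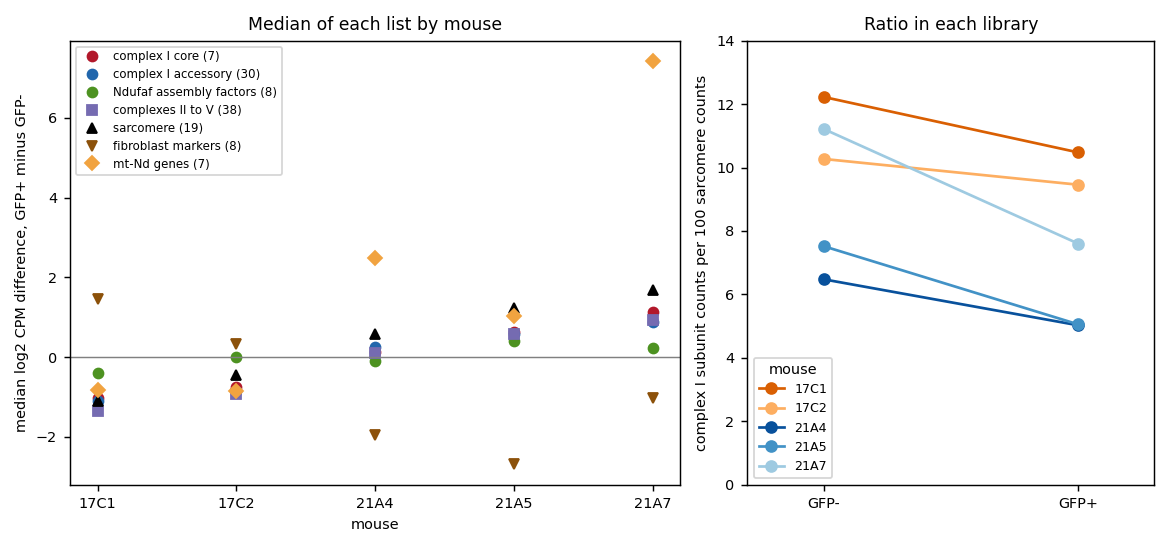
Left, median difference in log2 CPM between GFP+ and GFP- (y axis) of each gene list in each mouse (x axis), with the number of genes in brackets. Right, counts of complex I subunits per 100 counts of sarcomere genes in each library, joined within a mouse. Core and accessory subunits, complexes II to V and sarcomere genes lie below 0 in both 17C mice and above 0 in the 21A mice on TMM scaling (in the fit over the 21A mice the subunit median was negative with library size alone or sarcomere scaling), and the ratio of summed counts is lower in GFP+ in each of the 5 mice.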

How the data were processed

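RNA-seq was made from GFP+ and GFP- heart cells of 5 mice, with 1 ng of RNA amplified by a SMARTer Ultra Low kit and Nextera XT, per the labels' protocols; the kit marks neither strand nor molecule. The authors deposited raw read counts per gene symbol. Per the submitters' processing notes the build was GRCm39 and the tools were STAR 2.7.9a, fastp 0.23.1, featureCounts and Subread 2.0.1. From the counts, edgeR 4.0.16 (R 4.3.3) was fitted to 12115 genes kept by filterByExpr, with TMM scaling, a term for each mouse and the quasi-likelihood F-test, two-sided, with Benjamini-Hochberg adjustment over all genes and a threshold of 0.05. Each SE was derived from the fold change and its F value. Log2 CPM used a prior count of 2. The series difference is the interaction of GFP status and identifier series with 3 residual degrees of freedom, against 4 for the 5 mice, 1 for the 17C and 2 for the 21A mice. DESeq2 1.42.0 and limma 3.58.1 were alternatives. The fits were tested on simulated data.

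Libraries of a mouse share its identifier in the titles; the correlation of their deviations from the group means was 0.29, 0.40, 0.16, 0.07 and 0.64. No 2 libraries were identical (0 pairs). Shares leave out mitochondrial genes and Rn18s-rs5, Gm55118, Gm55094, Mir6236 and AY036118. Wilson 95% intervals around them cover counting error only and are narrow at this depth. Exon lengths are from GENCODE M21 and promoters from RefSeq, both on GRCm38 and matched by symbol, and no coordinate of the counts was used. Of 127 symbols on the other lists, 126 matched, 14 by a synonym. The members and lists were chosen with earlier results of these data known. Genes named were all core subunits, all Ndufaf genes, the 3 accessory subunits at each end of the paired order, any that passed, Ndufa4 and Ndufa4l2, untested members, all mt-Nd genes, and up to 4 of each other list; other genes were named after their values were seen. Some results are not reported here.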

Additional observations from a re-analysis of the deposited data

Results flagged for a closer look

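In the GFP+ group, 1 library lay far from the other 4 for 7 genes, of 54 gene and group combinations checked against Dixon's value of 0.71. Chance gives about 1 in 20 for a single check. The genes share the same libraries, so that rate cannot be set against the 7. In 6 of the 7 genes mouse 21A7 was low, at a log2 CPM of 4.99 for Ndufs1, 3.81 for Ndufs8, 6.14 for Ndufv1, 0.66 for Ndufaf1, -0.98 for Ndufaf3 and 4.44 for Ndufa4. In the other, Ndufb2, mouse 17C2 was high at 2.81.

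The difference between the 21A and the 17C mice passed for 8 of the genes named by rule, by 1.65 for Ndufs3, 1.81 for Ndufs8, 1.61 for Ndufv1, 1.65 for Ndufv2, 1.82 for Ndufv3, 1.90 for Ndufa1, 2.10 for Ndufb10 and 1.44 for Ndufa4 on the log2 scale (edgeR, adjusted p between 0.0236 and 0.0481).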

How the results depend on the processing

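Over all 5 mice the count of complex I genes called was 0 in each alternative that kept all mice or left out 1, including the fit without the replicate block. Of 12115 genes, DESeq2 called 895, limma voom 444 and library size alone 33. The fit without the block called 10, the one with the non-myocyte score 3 and sarcomere scaling 0. With the non-myocyte score as a covariate the median relative to all genes moved from 0.13 to -0.22 for assembly factors, to -0.52 for core and from 0.01 to -0.62 for accessory genes. Without the block core and accessory genes were at -0.30 and -0.41. Within a series, counts were 26 lower in the 17C mice (21 without the replicate block, 9 with library size alone, 3 lower and 2 higher with sarcomere scaling) and 1 higher in the 21A mice (1 lower with sarcomere scaling). In the 17C mice the paired fit called 1510 of 11107 genes, the fit without the block 1059 and library size alone 1155. For the 21A mice the paired fit called 889 of 13221. Shares under sarcomere scaling within a series are not given here. In the 17C mice the median relative to all genes was -0.97 for accessory genes (-0.99 without the block, -0.97 with either scaling) and -0.40 for assembly factors (-0.36 without the block, -0.40 with library size alone and -0.41 with sarcomere scaling). The series difference was called for 24 genes, all subunits. The count was 0 without the replicate block, 0 with library size alone and 0 with the non-myocyte score. With sarcomere scaling it was 2, both assembly factors with negative values, so none of the 24 was called. When 1 mouse was left out the count was 0 to 13, in fits that called 0% to 8.23% of all genes. The series fits without the block, the scalings within a series and the score in the series difference were chosen after seeing the data; the cause was not tested.

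Of 1880 values of 58 named genes over 33 settings, 1410 kept their sign and side of the threshold, 348 changed sign without being called, 87 passed only in the alternative, 18 no longer passed, 16 were called with the opposite sign and 1 changed sign and was no longer called. In the 17C mice the 16 were, paired and without the block, Ndufs3 (-0.96 and -0.96), mt-Nd6 (-1.83 and -1.80), mt-Nd5 (-1.67 and -1.66), mt-Nd4 (-1.17 and -1.17) and mt-Nd2 (-0.82 and -0.82); paired only, Ndufv1 (-0.80) and Cox7c (-0.81); mt-Nd6 and mt-Nd5 with library size alone (-1.68 and -1.52) and sarcomere scaling (-1.07 and -0.91). The other was Pdlim5 in the 21A mice with library size alone, at -0.46 and not called (adjusted p = 0.733, edgeR). What the lower counts of the assembly factors left undetected was not tested.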
